A study of Mus musculus with 8 samples.

Results

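The expression of 43 genes of the cell cycle and DNA replication was followed in the aging mouse kidney. The genes were picked by symbol, out of 22609 genes in the count tables, and 37 of the 43 passed the filter on low counts (edgeR's filter with a minimum count of 10). RNA from the renal cortex of 4 aged mice and 4 young mice was sequenced, with 1 library per mouse. The labels give an age of 30 months for the aged mice and 5 months for the young mice, and the study's methods give a somewhat higher mean age for the aged mice. All 8 animals were untreated male C57BL6 mice. Levels are given as raw counts of read pairs on a gene, or as CPM, the read pairs on a gene per 1000000 read pairs of the library after scaling with edgeR's TMM method.

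A dividing cell first copies its DNA in S phase and then separates the copies in mitosis. D-type cyclins and E2F transcription factors start the cycle, the Mcm helicase and the enzymes that supply deoxynucleotides serve replication, and the B-type cyclin and Cdk1 kinase pair drives mitosis, in which kinesins and centromere proteins move the chromosomes and Ect2 and Racgap1 direct the final cleavage. Most tubule cells of the adult kidney are at rest and divide rarely outside of injury repair. The 43 genes were divided by these roles into 24 mitosis genes, 11 replication genes, and 8 cyclins and transcription factors, a division written after values of these mice had been seen.

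No single gene of the 43 passed the test between aged and young mice. The values of the mitosis genes lay mostly lower in the aged mice, and those of the replication genes lay near the level of all genes. A log2 fold change below 0, aged against young, was found in 17 of the 19 mitosis genes tested, with a median of -0.60, against 45.9% of all 13944 genes tested, whose median was 0.03. Of the 11 replication genes, 4 had a log2 fold change below 0, and their median was 0.04. With scaling to library size only, under which the median of all genes was 0.14, all 11 replication genes lay above 0 (median 0.16) and the mitosis genes were again below 0 in 17 of 19 (median -0.51). In a fit without a filter on low counts, 22 of the 24 mitosis genes were below 0, against 44.5% of all 18224 genes in that fit. Of the 19 mitosis genes tested, Plk1 passed the filter through the young mice only and Aurka through the aged mice only. Without aged mouse 1, the mitosis genes lay below 0 in 19 of the 20 that could then be tested, with a median of -0.50, and over all alternatives with a filter this median lay between -0.76 without young mouse 4 and -0.46 without young mouse 2.

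**Figure D1:**
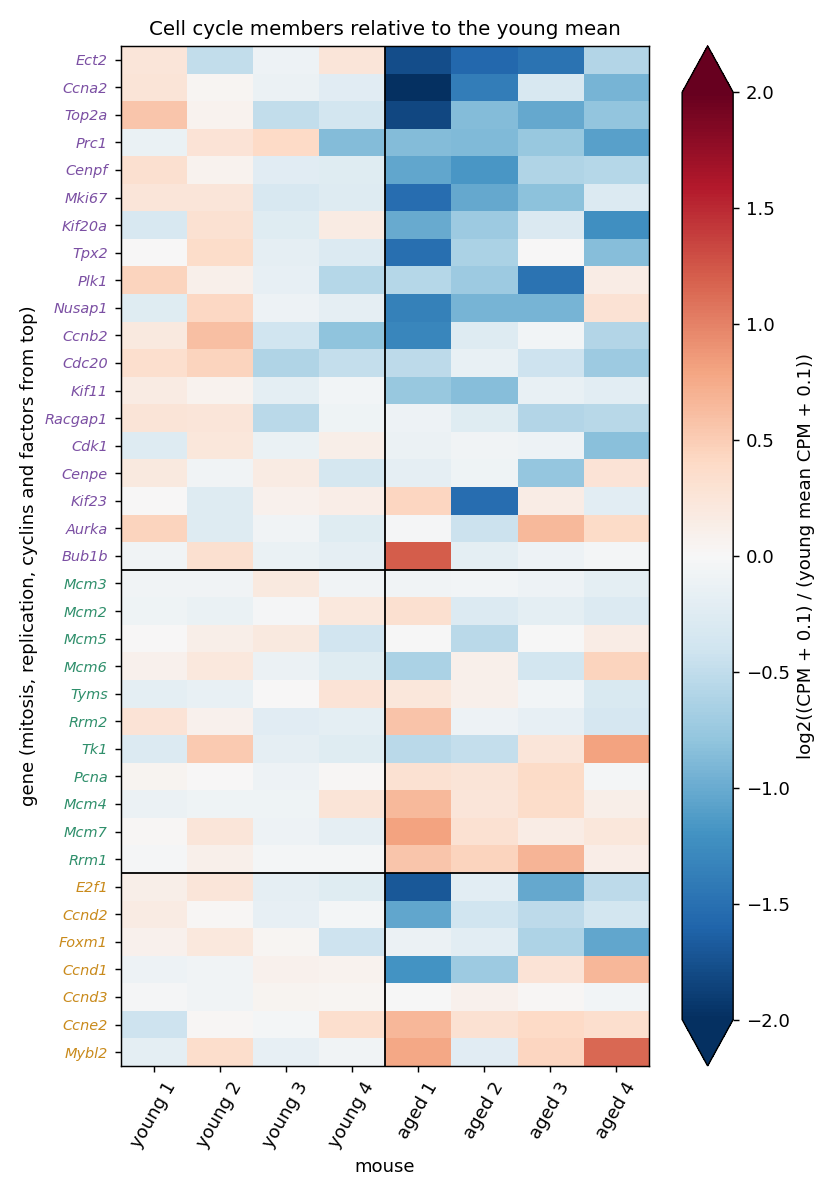
Level of each of the 37 members tested (rows, grouped as mitosis, replication, and cyclins and factors) in each mouse (columns), as log2 of the CPM over the mean of the young mice, with 0.1 added to both. Blue in most mitosis rows of the aged mice marks lower values, and the replication rows stay closer to the young mean.

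Genes were tested with edgeR's quasi-likelihood test, and a gene was called at a Benjamini-Hochberg adjusted p below 0.05 with a fold change above 1.5. By this rule 0 of the 37 members tested were called higher in the aged mice, where 1.17% of all genes tested were, and 0 were called lower, where 0.889% were. At an unadjusted p below 0.05, 3 members were higher, against 13.4% of all genes, and 9 were lower, against 12.1% of all genes. DESeq2 called 4 members lower (Ect2, Top2a, Mki67 and Cenpf), against 2.78% of all genes, and 0 higher, against 3.49%. Limma-voom called 1 member lower (Ect2), against 1.06%, and 0 higher, against 0.896%. In 5 members every aged mouse lay below every young mouse in CPM, as in 10% of all genes tested, and in 1 member every aged mouse lay above, as in 8.85%. These 5 were Ect2, Top2a, Ccna2, Cenpf and Ccnd2, and the 1 was Rrm1.

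**Figure D2:**
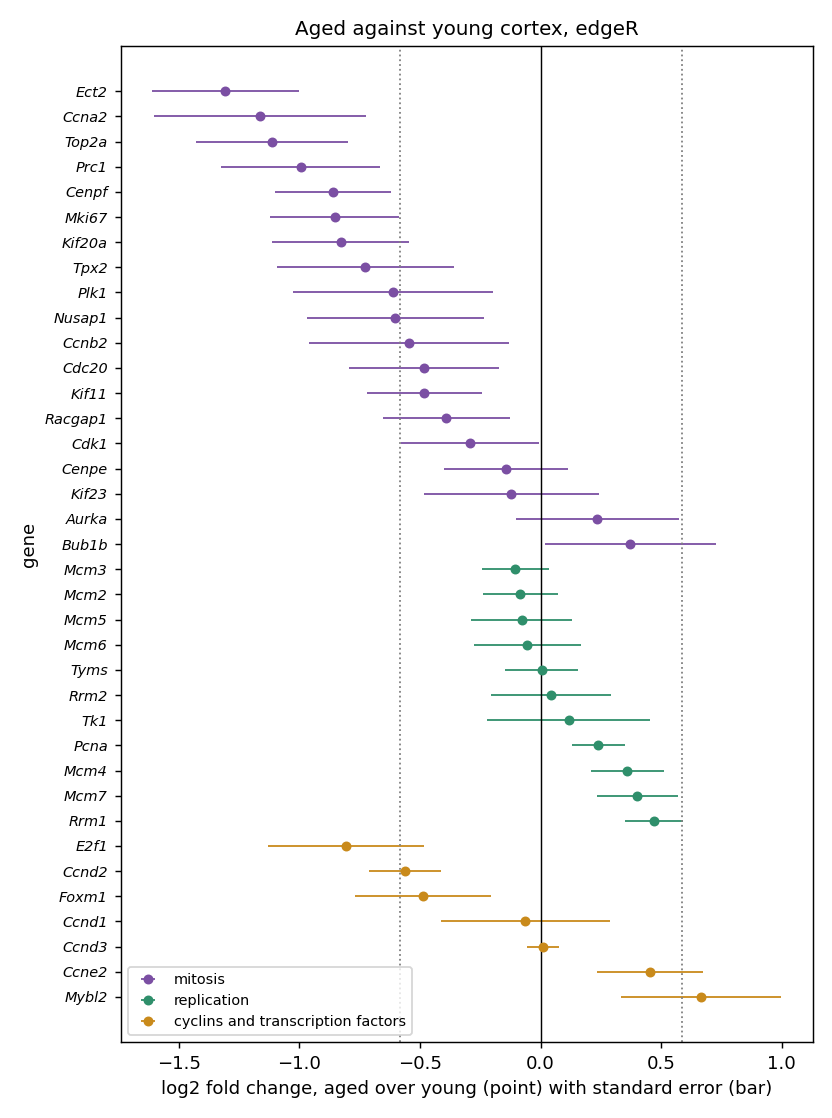
Log2 fold change of aged over young mice from edgeR (points) with its standard error (bars) for the 37 members tested, coloured by role, with dotted lines at a fold change of 1.5 in either direction. Values run from -1.31 for Ect2 to 0.67 for Mybl2, and all 11 replication genes lie between the dotted lines.

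Libraries held between 14820804 and 19821429 read pairs on genes, so that 3 counts, taken as the floor, stood for 0.147 to 0.204 CPM. No libraries were duplicates of each other. In the aged mouse 1 library the 6 proximal tubule markers summed to 8892 CPM, and in the other 7 libraries to between 18739 and 22759 CPM. Values without this mouse are given below for some genes, among them Bub1b, Ccnd2 and Cdkn1a, and not for every gene in which it stood highest. In whole-cortex RNA, fewer cells of a type and less RNA per cell cannot be told apart.

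Among the mitosis genes, Ect2 had the smallest p. It encodes the guanine nucleotide exchange factor that activates RhoA for the cleavage furrow, and lies at chr3:26996144-27052800 on the minus strand of mm9. Aged mice 1 to 4 had 33, 29, 38 and 70 read pairs on this gene, and young mice 1 to 4 had 111, 77, 79 and 117. Every aged mouse lay below every young mouse. The aged mean of 2.34 ± 0.998 CPM was 2.47-fold below the young mean of 5.80 ± 1.35 CPM (SD, n = 4 each) by the fit, a log2 fold change of -1.31 (standard error 0.30, edgeR adjusted p = 0.0546). It was called in 4 of the 16 alternative fits to filtered counts, among which the adjusted p was smallest with DESeq2 (0.00169) and greatest without young mouse 4 (0.149). Without young mouse 4, only 4 of all 14129 genes tested were called lower.

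Top2a encodes DNA topoisomerase II alpha, which untangles the sister chromatids, and lies at chr11:98854257-98885503 on the minus strand of mm9. The aged mice had 23, 35, 38 and 44 counts against 101, 84, 44 and 55 for the young mice. The groups did not overlap in CPM, although the lowest young value, in mouse 3, was 2.99. Means were 1.96 ± 0.573 CPM for aged against 4.22 ± 1.47 CPM for young mice (SD, n = 4 each). The log2 fold change was -1.11 (standard error 0.31, edgeR adjusted p = 0.0811). Cenpf, a large protein of the kinetochore, had 22, 15, 28 and 28 counts in aged against 47, 46, 29 and 33 in young mice. Its groups were also apart in CPM, and edgeR gave a log2 fold change of -0.86 (standard error 0.24, edgeR adjusted p = 0.0806).

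Mki67 encodes Ki-67, the coat protein of mitotic chromosomes that is widely used to stain cycling cells, and lies at chr7:142881471-142908062 on the minus strand of mm9. The aged mice had 66, 71, 99 and 143 counts against 181, 212, 111 and 134 for the young mice. Aged mouse 4 lay within the range of the young mice, so the groups overlapped. Means were 5.23 ± 1.90 CPM for aged against 9.45 ± 2.00 CPM for young mice (SD, n = 4 each), and edgeR gave a log2 fold change of -0.85 ± 0.27 (standard error) at an adjusted p of 0.10. Without aged mouse 4 the gene was called lower, and so were Ect2 and Nusap1. Calls rose across all genes in that fit, with 404 of 14066 called lower, against 124 of 13944 with every mouse kept. The 3 calls are therefore not specific to these genes.

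Ccna2, the cyclin that serves both S phase and entry into mitosis, had counts of 6, 13, 35 and 22 in aged against 46, 46, 32 and 34 in young mice. Aged mouse 1 had the lowest count and aged mouse 3 the highest in its group, yet all 4 aged mice lay below the young mice once scaled to CPM. The log2 fold change of Ccna2 was -1.16 (standard error 0.44, edgeR adjusted p = 0.145). Prc1, which bundles the microtubules of the central spindle, had counts of 12, 9, 12 and 9 in aged against 17, 27, 23 and 10 in young mice, and its log2 fold change was -0.99 (edgeR adjusted p = 0.112). Kif20a, a kinesin of cytokinesis, had counts of 17, 16, 27 and 13 in aged against 23, 42, 22 and 34 in young mice, and its log2 fold change was -0.83 (edgeR adjusted p = 0.121). Both overlapped between the groups.

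The promoters of the mitosis genes are known to be read by the DREAM complex, which holds them silent in resting cells through a CHR element, and by NF-Y, which binds CCAAT boxes, whereas E2F elements are typical of replication genes. The 200 bases before the start of 3 mitosis genes and 2 replication genes are shown so that the motifs can be compared. They are the replication genes with the smallest p, Rrm1 and Mcm7, and the mitosis genes Ect2, Top2a and Mki67, which were not picked by p alone. Cenpf, with a smaller p than Top2a and Mki67, is not shown. The sequences were taken from RefSeq on GRCm38.p6, a later build than the mm9 of the counts, and are written 5′ to 3′ on the gene's strand. Capitals mark the CHR letters TTTGAA or TTCGAA, the CCAAT letters and the E2F letters TTCCCGC or TTGGCGC, each on either strand.
Ect2, chr3:27153879-27154078, minus strand: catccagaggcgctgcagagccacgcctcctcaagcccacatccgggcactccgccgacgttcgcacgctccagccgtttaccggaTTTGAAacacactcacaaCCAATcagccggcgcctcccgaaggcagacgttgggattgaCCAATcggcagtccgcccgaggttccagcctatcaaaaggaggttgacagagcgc
Top2a, chr11:99024190-99024389, minus strand: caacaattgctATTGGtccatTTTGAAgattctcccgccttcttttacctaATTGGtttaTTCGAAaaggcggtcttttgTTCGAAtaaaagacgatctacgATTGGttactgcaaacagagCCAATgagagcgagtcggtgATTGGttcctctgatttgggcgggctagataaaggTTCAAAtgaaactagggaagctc
Mki67, chr7:135716380-135716579, minus strand: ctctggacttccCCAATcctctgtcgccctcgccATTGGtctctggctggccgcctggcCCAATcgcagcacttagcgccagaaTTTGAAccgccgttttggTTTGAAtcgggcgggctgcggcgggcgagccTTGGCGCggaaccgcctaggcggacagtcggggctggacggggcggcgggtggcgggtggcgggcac
Rrm1, chr7:102441495-102441694, plus strand: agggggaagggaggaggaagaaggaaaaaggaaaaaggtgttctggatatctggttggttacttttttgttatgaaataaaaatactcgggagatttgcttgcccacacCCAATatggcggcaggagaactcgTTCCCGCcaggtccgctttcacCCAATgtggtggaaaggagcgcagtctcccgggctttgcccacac
Mcm7, chr5:138171884-138172083, minus strand: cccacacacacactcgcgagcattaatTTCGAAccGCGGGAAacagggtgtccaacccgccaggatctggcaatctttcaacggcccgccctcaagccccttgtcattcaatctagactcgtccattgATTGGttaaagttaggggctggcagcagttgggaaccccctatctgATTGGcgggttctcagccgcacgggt

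Of the 43 members, 34 had a promoter window in the RefSeq table, with 1 window per gene (the most upstream) from 250 bases before to 50 bases after its start. CHR letters were found in 15 of 20 mitosis windows (75%), in 2 of 10 replication windows and in 0 of the 4 windows of cyclins and transcription factors, against 19.5% of all 27025 windows. A CCAAT box stood in 17 of the 20 mitosis windows, in 8 of the 10 replication windows and in 38.0% of all windows. Both motifs together were in 15 of the 20 mitosis windows, 2 of the 10 replication windows and 7.73% of all windows. E2F letters were in 4 of the 20 mitosis windows, 5 of the 10 replication windows and 6.96% of all windows. The end of ATTGG can overlap the start of TTGGCGC, and such letters were counted for both motifs. A match is a run of letters and not a measured binding site, and no factor was measured in these mice.

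Smaller differences were found in the remaining mitosis genes tested, and none of these passed. Tpx2, which activates Aurora A on the spindle, had a log2 fold change of -0.73 (edgeR adjusted p = 0.244), and the kinase Plk1 had -0.61 (edgeR adjusted p = 0.368). Nusap1, a microtubule binder of the spindle, had counts of 32, 33, 40 and 94 in aged against 57, 106, 57 and 62 in young mice, so that aged mouse 4 stood high in its group. Its log2 fold change was -0.60 (edgeR adjusted p = 0.320). The log2 fold change was -0.55 for Ccnb2, a cyclin of mitosis, and -0.48 both for Cdc20, the activator of the anaphase-promoting complex, and for Kif11, the kinesin that pushes the spindle poles apart. It was -0.39 for Racgap1, the partner of Ect2 at the central spindle. Cdk1, the kinase that starts mitosis, had counts of 14, 11, 13 and 7 in aged against 10, 17, 10 and 14 in young mice, so that aged mouse 4 stood low, and its log2 fold change was -0.29. Cenpe, a kinesin of the kinetochore, had -0.14 and Kif23, a kinesin of the central spindle, had -0.12, and each changed sign when 1 aged mouse was left out (0.02 for Cenpe without aged mouse 3, and 0.15 for Kif23 without aged mouse 2).

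Aurka and Bub1b were the 2 mitosis genes tested that had a log2 fold change above 0. Aurka encodes Aurora A kinase and had a log2 fold change of 0.24 (edgeR adjusted p = 0.683). Bub1b encodes the checkpoint protein BubR1, and its counts were 98, 27, 35 and 36 in aged against 31, 48, 27 and 30 in young mice. The excess lay in aged mouse 1, since the log2 fold change was 0.37 with that mouse and -0.12 without it.

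There were 5 mitosis genes too low to be tested, as was Ccne1, and their raw counts are given in place of a fold change. Ccnb1, the main cyclin partner of Cdk1, had counts of 4, 1, 5 and 2 in aged against 5, 9, 6 and 5 in young mice. Bub1, a checkpoint kinase, had 0, 1, 4 and 1 in aged against 6, 10, 4 and 4 in young mice. Aurkb, the kinase of the chromosomal passenger complex, had 4, 3, 4 and 4 in aged against 6, 8, 6 and 4 in young mice. In CPM these 3 genes had every aged mouse below every young mouse, as did 10% of all genes tested, at levels of a few read pairs per library. In raw counts the highest aged mouse equalled the lowest young mouse for each of the 3, so the separation came from the scaling. Birc5, or survivin, of the same complex as Aurkb, had 4, 9, 7 and 4 in aged against 11, 25, 7 and 6 in young mice. Melk, a kinase of dividing cells, had 3, 3, 4 and 5 in aged against 7, 8, 2 and 6 in young mice. Both overlapped between the groups in CPM.

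Summed over all 24 mitosis genes, whether tested or not, aged mice 1 to 4 reached 28.9, 27.9, 33.3 and 39.2 CPM and young mice 1 to 4 reached 57.7, 56.5, 44.7 and 45.0 CPM. The groups did not overlap, and their means were 32.3 ± 5.17 CPM for aged against 51.0 ± 7.08 CPM for young mice (SD, n = 4 each). No p is given for a sum over chosen genes. Such a sum weighs each gene by its level, and so does the sum of counts used below. Mki67, Ect2 and Top2a had the highest young means of the 24, at 9.45, 5.80 and 4.22 CPM. Their aged means were 5.23, 2.34 and 1.96 CPM. The Mcm2 to Mcm7 genes, which encode the subunits of the replicative helicase, allow a ratio within each library that does not depend on scaling. Per 100 counts of Mcm2 to Mcm7 the aged mice had 36.0, 39.5, 50.9 and 51.5 counts of mitosis genes against 85.2, 78.2, 67.7 and 67.8 for the young mice. The mean ratio was 44.5 ± 7.91 for aged against 74.7 ± 8.57 for young mice (SD, n = 4 each), and the difference of -30.3 lay between -32.6 and -26.8 with any 1 mouse left out.

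**Figure D3:**
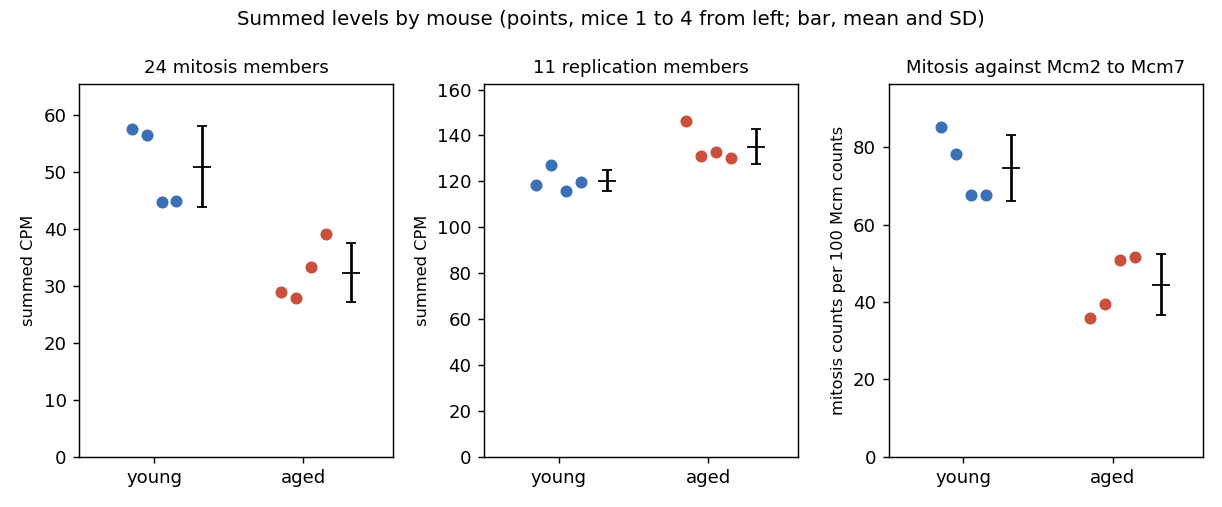
Summed CPM of the 24 mitosis genes (left) and of the 11 replication genes (middle), and counts of mitosis genes per 100 counts of Mcm2 to Mcm7 (right), with 1 point per mouse and bars for mean and SD. The aged mice lie below the young mice on the left and on the right, and above them in the middle, where the means are 135 and 120 CPM.

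Summed over the 11 replication genes, aged mice 1 to 4 reached 146, 131, 133 and 130 CPM and young mice 1 to 4 reached 118, 127, 116 and 120 CPM. The aged mice lay above the young mice, and aged mouse 1 stood above the rest of its group. Taken singly, only Rrm1 had every aged mouse above every young mouse, and 4 of the 11 genes had a log2 fold change below 0. Without aged mouse 1, 5 of the 11 were below 0, and their median was 0.10. Among the replication genes, Rrm1 had the smallest p. It encodes the large subunit of ribonucleotide reductase, the enzyme that makes deoxynucleotides, and lies at chr7:109590209-109618285 on the plus strand of mm9. Its counts were 525, 368, 530 and 355 in aged against 281, 355, 251 and 289 in young mice. In CPM all 4 aged mice lay above the 4 young mice, with means of 24.3 ± 3.79 for aged against 17.5 ± 0.819 for young mice (SD, n = 4 each). The log2 fold change was 0.47 (standard error 0.12, edgeR adjusted p = 0.0661), which is below the fold threshold of 1.5. The small subunit, Rrm2, which is made mainly in S phase, had counts of 96, 45, 52 and 45 in aged against 62, 63, 39 and 46 in young mice. Aged mouse 1 was again the highest, and Rrm2 had a log2 fold change of 0.04 with a 95% interval from -0.52 to 0.60.

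The 6 helicase genes had log2 fold changes on both sides of 0. Mcm7, at chr5:138605811-138613650 on the minus strand of mm9, had counts of 492, 261, 285 and 296 in aged against 225, 307, 187 and 204 in young mice, and the log2 fold change was 0.40 (standard error 0.17, edgeR adjusted p = 0.174). Mcm4 had counts of 319, 181, 239 and 197 in aged against 148, 177, 137 and 202 in young mice, and the log2 fold change was 0.36 (standard error 0.15, edgeR adjusted p = 0.177). Aged mouse 1 had the highest value of the 8 mice for both, and the groups overlapped. Mcm2 had counts of 370, 186, 238 and 222 in aged against 223, 252, 212 and 287 in young mice, with aged mouse 1 again the highest. Mcm6 had counts of 274, 344, 303 and 520 in aged against 360, 458, 284 and 299 in young mice, with aged mouse 4 the highest. Mcm2, Mcm3, Mcm5 and Mcm6 had log2 fold changes between -0.10 and -0.06, and with scaling to library size only between 0.01 and 0.04. Their 95% intervals included 0, from -0.44 to 0.27 for Mcm2, from -0.42 to 0.21 for Mcm3, from -0.55 to 0.40 for Mcm5 and from -0.56 to 0.45 for Mcm6.

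The other replication genes overlapped between the groups. Pcna, the sliding clamp of DNA polymerase, had a log2 fold change of 0.24 (edgeR adjusted p = 0.212), but 81.6% of the 100-nt windows along its exons lie within a copy elsewhere in mm9 at 98% identity or more, so its counts may be incomplete or shared. Thymidylate synthase (Tyms) had a log2 fold change of 0.00 with a 95% interval from -0.34 to 0.35. Thymidine kinase 1 (Tk1) had counts of 66, 52, 106 and 154 in aged against 64, 130, 62 and 68 in young mice, and a log2 fold change of 0.12 with a 95% interval from -0.65 to 0.88. A change of the size of the fold threshold lies outside the interval for Tyms and inside it for Tk1.

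**Figure D4:**
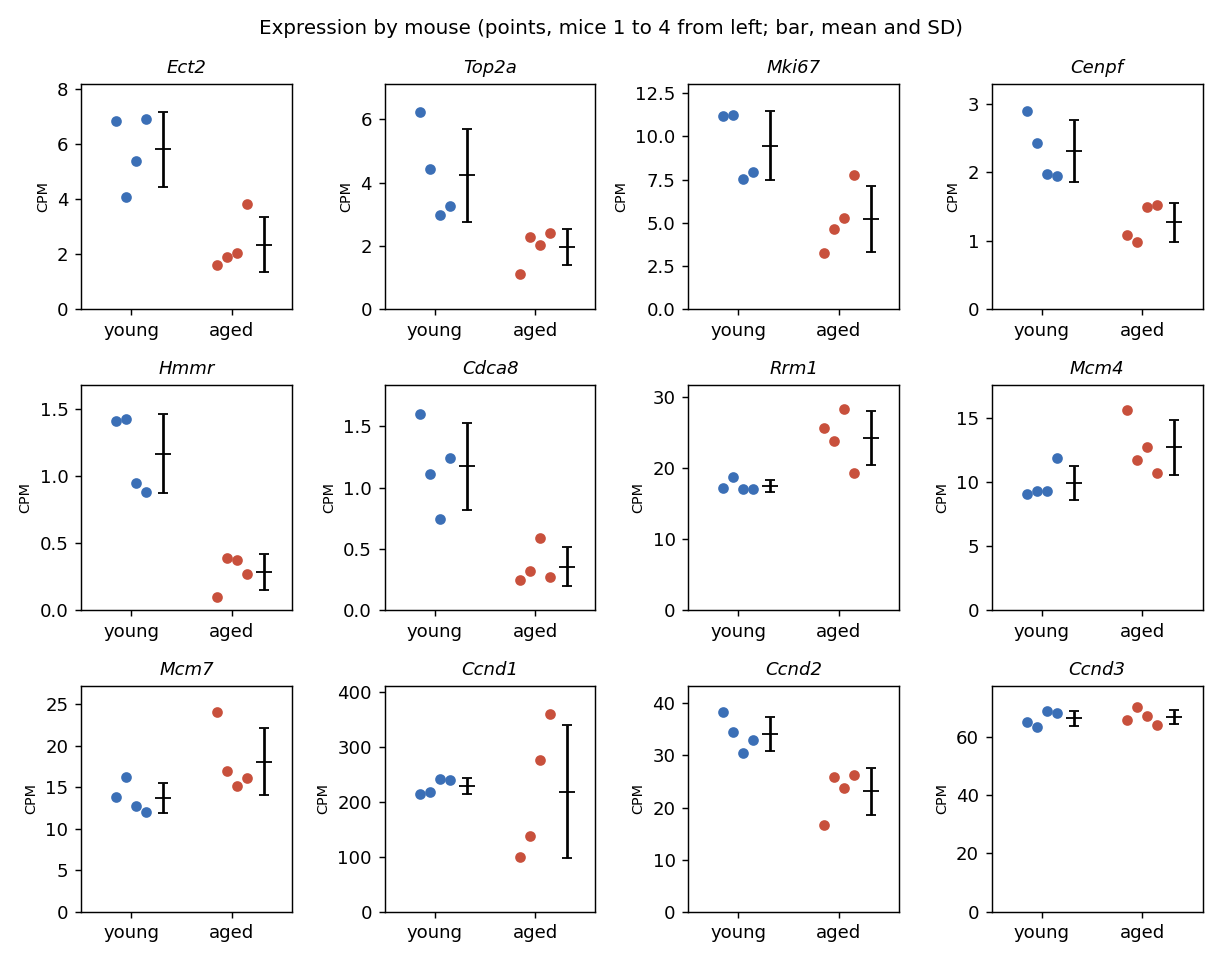
CPM of 12 genes in each mouse (points, with bars for mean and SD), with young mice in blue and aged mice in red. The aged mice lie below the young mice for Ect2, Top2a, Cenpf, Hmmr, Cdca8 and Ccnd2 and above them for Rrm1, whereas Ccnd3 averages 66.4 CPM for young and 66.9 CPM for aged mice and Ccnd1 spreads from 99.5 to 360 CPM among the aged mice. Hmmr and Cdca8 are not among the members and passed the filter on low counts through the young mice only.

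Ccnd1 was the member with the highest level per length of its exons, followed by Ccnd3. In the young mice Ccnd1 was at 59.5 ± 3.75 CPM per kb (SD, n = 4), Ccnd3 at 29.4 ± 1.18 and Ccnd2 at 5.98 ± 0.581. Pcna followed at 5.78 ± 0.257, within the spread of Ccnd2, and then Mcm6 at 4.77 ± 0.670. Bub1 was the lowest of the 43, at 0.0807 ± 0.0300 CPM per kb. Mki67 was at 0.938 ± 0.198 CPM per kb and Top2a at 0.466 ± 0.162, below the level of each D-type cyclin.

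The D-type cyclins pair with Cdk4 and Cdk6 to open G1 phase, and the values of the 3 genes differed. Ccnd2, at chr6:127075797-127101066 on the minus strand of mm9, had counts of 338, 397, 443 and 483 in aged against 622, 654, 447 and 560 in young mice. In CPM all 4 aged mice lay below the 4 young mice, with means of 23.1 ± 4.48 for aged against 34.1 ± 3.31 for young mice (SD, n = 4 each), and the log2 fold change was -0.56 (standard error 0.15, edgeR adjusted p = 0.0707). Without aged mouse 1 its adjusted p was 0.0372, at a log2 fold change of -0.43 that is below the fold threshold. Ccnd3 had means of 66.9 ± 2.50 CPM for aged against 66.4 ± 2.66 CPM for young mice (SD, n = 4 each), with a 95% interval of the log2 fold change from -0.14 to 0.16.

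Ccnd1, at chr7:152115836-152125774 on the minus strand of mm9, had counts of 2027, 2126, 5152 and 6617 in aged against 3467, 4122, 3555 and 4051 in young mice. Aged mice 1 and 2 lay below all young mice and aged mice 3 and 4 above them. The means were 218 ± 121 CPM for aged against 228 ± 14.4 CPM for young mice (SD, n = 4 each), and their difference was within the spread among the aged mice (log2 fold change -0.06, standard error 0.35, edgeR adjusted p = 0.922). With scaling to library size only the log2 fold change was 0.03. The share of Ccnd1 in the counts of the 3 D-type cyclins was 54.7%, 59.0%, 75.2% and 79.9% for aged against 67.4%, 69.0%, 70.9% and 70.2% for young mice. The mean share was 67.2% ± 12.2 for aged against 69.4% ± 1.53 for young mice (SD, n = 4 each; two-sided exact permutation test over 70 orders, p = 0.714, the smallest possible p being 0.0286).

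The E-type cyclins and the transcription factors gave mixed signs. E2f1, the activator of S-phase genes, had counts of 17, 39, 26 and 37 in aged against 52, 66, 38 and 42 in young mice, with a log2 fold change of -0.81 (edgeR adjusted p = 0.164). Foxm1, which drives mitosis genes together with Mybl2, had a log2 fold change of -0.49 (edgeR adjusted p = 0.296), and part of its exons overlaps those of 4933413G19Rik on the same strand. Mybl2 had counts of 34, 12, 24 and 40 in aged against 13, 23, 12 and 15 in young mice, with a log2 fold change of 0.67 (edgeR adjusted p = 0.238), and 34.4% of its exon windows lie in a copy elsewhere in mm9. Ccne2, a cyclin of S-phase entry, had a log2 fold change of 0.45 (edgeR adjusted p = 0.230). Ccne1, its close relative, had counts of 2, 4, 7 and 1 in aged against 4, 11, 7 and 6 in young mice and was not tested. Ccnb1, at 59.7% of windows, was the only other member with over 10% of its exon windows in such a copy.

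Beyond the 43 genes, 60 other mitosis genes, 45 genes of the replication origin and fork, and 34 kinases, inhibitors and genes of the Rb and E2F pathway were listed. Of the other mitosis genes 34 were tested, of which 7 passed the filter through the young mice only and 1 through the aged mice only, so the counts below 0 among those tested lean on the filter. Below 0 were 25 of the 34 (median log2 fold change -0.21), 19 of 34 with scaling to library size only (median -0.09), 45 of 59 without a filter (median -0.35) and 14 of 23 with at least 10 counts in every library (median -0.04). Hmmr and Cdca8 were called lower, where 0.889% of all genes tested were, and both had passed the filter through the young mice only. Hmmr, a microtubule-associated protein of the spindle, had counts of 2, 6, 7 and 5 in aged against 23, 27, 14 and 15 in young mice. None of the aged libraries and all 4 young libraries reached the filter's level for Hmmr, and its log2 fold change was -2.05 (standard error 0.39, edgeR adjusted p = 0.0390). Cdca8, or borealin, of the chromosomal passenger complex, had counts of 5, 5, 11 and 5 in aged against 26, 21, 11 and 21 in young mice, with 1 aged library and 4 young libraries at the filter's level. The log2 fold change of Cdca8 was -1.70 (standard error 0.37, edgeR adjusted p = 0.0472). Without a filter the adjusted p was 0.0480 for Hmmr, which was called, and 0.0607 for Cdca8, which was not, and with at least 10 counts in every library neither was tested. Hmmr was called in 8 of 15 alternative fits to filtered counts and Cdca8 in 6 of 15. Cdca8 was not called when any 1 of the 8 mice was left out. Hmmr was called without aged mouse 1 and without aged mouse 4 but not without any 1 of the other 6 mice. Among all genes, 219 of 14016 were called lower without aged mouse 1 and 404 of 14066 without aged mouse 4. The adjusted p reached 0.118 and 0.138 without young mouse 1, a fit in which 3 of all 14116 genes tested were called lower. The promoter windows of both hold CHR letters and CCAAT boxes. Both motifs also stand in the windows of Aurka and Bub1b, whose log2 fold changes were above 0. The window of Nusap1, whose log2 fold change was below 0, holds neither.

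Of the 45 genes of the replication origin and fork, 42 were tested, 24 of them above 0 with a median log2 fold change of 0.05, and 0 were called by edgeR. At an unadjusted p below 0.05, 6 of the 42 were higher and 3 lower, where 13.4% and 12.1% of all genes were. DESeq2 called 1 of the 42 lower, where 2.78% of all genes were. The smallest p was that of Mcm10, an initiation factor (log2 fold change -0.65, standard error 0.15, edgeR adjusted p = 0.0508), named here after its values were seen.

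Of the 34 kinases, inhibitors and genes of the Rb and E2F pathway, 31 were tested, with 2 called higher and 1 lower. Among all genes tested 1.17% were called higher and 0.889% lower. Myc, a transcription factor of growth and division, had counts of 586, 189, 271 and 379 in aged against 104, 94, 108 and 144 in young mice, and rose by a log2 fold change of 1.49 (standard error 0.28, edgeR adjusted p = 0.0385). Cdkn2c, which encodes the inhibitor p18 of Cdk4 and Cdk6, had counts of 188, 163, 155 and 169 in aged against 82, 103, 92 and 105 in young mice, and rose by a log2 fold change of 0.70 (standard error 0.13, edgeR adjusted p = 0.0390). E2f3, an E2F activator, had counts of 121, 108, 67 and 124 in aged against 207, 253, 175 and 173 in young mice and fell by 1.05 on the log2 scale (standard error 0.21, edgeR adjusted p = 0.0399). They were called in 11, 9 and 10 of 16 alternative fits to filtered counts. Myc alone was called without aged mouse 2, E2f3 alone without aged mouse 3, and none of the 3 without any 1 young mouse, with adjusted p of 0.115, 0.122 and 0.119 in the same order without young mouse 1.

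Cyclin-dependent kinase inhibitors Cdkn1a and Cdkn2a, markers of arrested and senescent cells, were looked at after their values were seen. Cdkn1a, or p21, had counts of 2320, 235, 463 and 165 in aged against 84, 74, 73 and 108 in young mice, with aged mouse 1 far above the rest, and its log2 fold change was 3.00 (standard error 0.76, edgeR adjusted p = 0.0658). Without aged mouse 1 the log2 fold change was 1.68 (edgeR adjusted p = 0.0274), and without aged mouse 4 it was 3.33 (edgeR adjusted p = 0.0261), and in these cases Cdkn1a was called higher. Among all genes, 225 of 14016 were called higher without aged mouse 1 and 329 of 14066 without aged mouse 4. With every mouse kept, 163 of 13944 were. Cdkn1a was not called without any other mouse. There the edgeR adjusted p ran from 0.0698 without aged mouse 2 to 0.167 without young mouse 1. Cdkn2a had counts of 5, 2, 1 and 3 in aged mice against 0 in every young mouse, and was below the filter. Cdkn2b, another inhibitor of the list, named after its values were seen, had counts of 171, 9, 10 and 7 in aged mice. The young mice had 18, 8, 9 and 15. Its log2 fold change was 1.73 (edgeR adjusted p = 0.300), with the excess in aged mouse 1 and the other aged mice within or below the young range in CPM.

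Markers of other cell types were measured beside these values. The 7 B and plasma cell markers in the tables summed to 34.1 to 101 CPM in aged and 7.38 to 16.3 CPM in young mice, a sum carried by Igj (named after its values were seen), the joining chain of antibodies, which rose by a log2 fold change of 2.65 (edgeR adjusted p = 0.0311), with 1 of the 4 tested being called. The 7 T cell markers summed to 6.67 to 9.42 CPM in aged and 3.07 to 6.84 CPM in young mice. All 6 tested had a log2 fold change above 0 (median 0.77), with 0 called. The 7 macrophage markers summed to 222 to 361 CPM in aged and 203 to 296 CPM in young mice, and 6 of the 7 had a log2 fold change above 0 (median 0.48) with 0 of them called. The other one, Csf1r (named after its values were seen), fell by 1.00 on the log2 scale (edgeR adjusted p = 0.0472). The 5 endothelial markers summed to 341 to 511 CPM in aged and 405 to 446 CPM in young mice, with 0 of 5 called. The 6 tubule injury markers summed to 471 to 1029 CPM in aged and 443 to 599 CPM in young mice. All 5 tested had a log2 fold change above 0 (median 0.54), with 0 called and a smallest edgeR adjusted p of 0.0525. The 6 markers of other nephron parts summed to 3306 to 4939 CPM in aged and 4002 to 5888 CPM in young mice, with 3 of 6 above 0 and 0 called. The part of these cells in the values of the cell cycle genes was not tested.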

How the data were processed

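RNA from whole renal cortex was sequenced in 8 libraries. After depletion of ribosomal RNA and stranded library preparation, reads were mapped on mm9 by TopHat2 and the authors counted read pairs on RefSeq genes with HTSeq. They deposited raw counts per gene, 1 table per library. The submitters' processing notes name CASAVA 1.8.2, and other versions are not given in the sources used here. The 5 lines of each table that name no gene entered neither library sizes nor tests. Pairs on no gene made up 20.0% to 29.9% of a table and pairs not aligned uniquely 34.3% to 39.1%. A joint table with 8 columns of values was not used, since its column names are not sample titles.

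Groups came from the labels. Counts were tested in R 4.3.3 with edgeR 4.0.16 (quasi-likelihood, TMM, filterByExpr with a minimum count of 10, no covariate), and adjusted over the 13944 genes tested by Benjamini-Hochberg. The standard error is the log2 fold change divided by the square root of F. DESeq2 1.42.0, limma-voom (limma 3.58.1), other scalings and filters, robust fitting, no fold threshold, the replicate number as a block and each mouse left out were alternatives. The methods were tested on simulated data. Copies were sought in mm9 (BLAST 2.17.0), and motifs with Python 3.11.15.

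The members and lists were chosen with earlier results of these data known, and the division into roles was written after values were seen. A planned exact test of the ratio of mitosis genes to Mcm2 to Mcm7 is therefore not given. Named genes are the 43 members and the genes called in the wider lists, up to 5 with the smallest p in each direction. Others are said to be chosen after their values were seen. The intervals and the floor of 3 counts cover counting error or the spread between these mice only.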

Additional observations from a re-analysis of the deposited data

Results flagged for a closer look

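In 11 of the 116 sets of 4 values examined, the highest or lowest mouse lay far from the other 3, with a gap to the nearest value, as a share of the whole range, above Dixon's critical value for 4 samples. By chance about 1 set in 20 does so, which is 5.8 sets here. Aged mouse 1 was the highest for Bub1b (gap of 0.933 of the range, 4.81 CPM), for Mcm2 (0.897, 18.2 CPM), for the summed replication genes (0.835, 146 CPM) and for the summed kinases, inhibitors and Rb and E2F genes (0.901, 978 CPM). Aged mouse 4 was the lowest for Cdk1 (0.916, 0.381 CPM) and the highest for Nusap1 (0.838, 5.12 CPM). Aged mouse 3 was the highest for the summed B and plasma cell markers (0.936, 101 CPM). Among the young mice, mouse 2 was the highest for Rrm1 (0.852, 18.8 CPM) and Tk1 (0.907, 6.87 CPM), mouse 3 for Mcm3 (0.955, 5.57 CPM) and mouse 4 for Mcm4 (0.915, 11.9 CPM).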

How the results depend on the processing

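All genes called numbered 287, and 488 with scaling to library size only, 873 with DESeq2 and 130 with a replicate block (8 to 733 with 1 mouse left out). The 8 were without young mouse 1 and the 733 without aged mouse 4. Members called lower numbered 0, and 4 with DESeq2, 1 with limma-voom (Ect2) and 1 with library size only (0 to 3 with 1 mouse left out, 3 being without aged mouse 4). Members called higher numbered 0, and 1 with library size only (Rrm1). Members at an adjusted p below 0.05 numbered 0, and 2, 6 and 1 with library size only, DESeq2 and limma-voom (0 to 4 with 1 mouse left out). In the list of the replication origin and fork 0 were called, and 1 with DESeq2 (0 to 1 with 1 mouse left out). In the other mitosis list 2 were called, and 4 with DESeq2, 1 without a filter, 0 with at least 10 counts in every library and 0 with a replicate block (0 to 3 with 1 mouse left out). In the kinase and inhibitor list 3 were called, and 6 with DESeq2 and 1 with a replicate block (0 to 6 with 1 mouse left out). The causes were not tested. With 1 mouse left out the Ccnd1 share differed by -6.41 to 2.00 percentage points.

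The sign of a log2 fold change near 0 turned with library size only for Ccnd1 (0.031), Mcm2 (0.032), Mcm3 (0.0066), Mcm5 (0.030) and Mcm6 (0.042), and without a filter for Tyms (-0.0046). With 1 mouse left out the ranges were -0.42 to 0.18 for Ccnd1, -0.014 to 0.028 for Ccnd3, -0.12 to 0.52 for Bub1b, -0.37 to 0.15 for Kif23, -0.32 to 0.023 for Cenpe, -0.19 to 0.049 for Mcm5, -0.27 to 0.10 for Mcm6, -0.21 to 0.15 for Rrm2, -0.082 to 0.11 for Tyms and -0.22 to 0.35 for Tk1. Over the members tested and the genes called in the wider lists, 634 of the alternative values kept direction and side of the threshold. A further 10 newly passed it, 35 lost it and 26 changed sign. Only Hmmr, Cdca8, Myc, Cdkn2c and E2f3 among these genes were called in the main edgeR fit, so all 35 losses were theirs. Most of the 634 values were of members that were not called in either fit. The replicate numbers share nothing in the labels beyond the number, and deviations of same-numbered mice correlated at 0.206, 0.038, 0.199 and -0.030, each own number being the best match for mice 1, 2 and 3.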
